A study of Mus musculus with 8 samples.

Results

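Krt23 encodes keratin 23, a type I keratin, and was matched to 1 of the 33012 probes on the array, which carries the RefSeq accession NM_033373.1. Only 311 probes were matched to a gene symbol, so a further Krt23 probe among the rest would not be seen. The probe was chosen by name because its signal in these same 8 samples was low in Wt1 mutants, so its levels and their difference are given as a description, with no test. The samples are pools of metanephric kidney anlagen, the forerunner of the permanent kidney, from mouse embryos. They were dissected at E10.25, a time in embryonic days, when embryos had 8 to 13 tail somites, and each pool held 16 kidneys of the same genotype. There were 4 Wt1 mutant pools, labelled WT1_KO and carrying the Wt1 mutant allele, and 4 control pools. The control titles read WT while their genotype entry reads WT1_heterozygote, so the controls are called by that name and their genotype is not settled here. All pools shared a mixed C57Bl6/DBA background and had no other allele or agent in the labels. The submitters place this stage ahead of the cell death seen in Wt1 mutants. Nothing in the labels says that the pools came from separate litters, so the spread between pools may be partly technical.

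Keratins are the intermediate filament proteins of epithelial cells. A type I keratin pairs with a type II keratin, and the pairs assemble into filaments that give an epithelium its mechanical strength. Krt23 is a little-studied member of the type I family whose human counterpart is induced by histone deacetylase inhibitors in pancreatic cancer cells and whose mouse gene is induced in injured liver. WT1, the transcription factor disrupted here, is needed in the metanephric mesenchyme for the ureteric bud to grow out and for the mesenchyme to survive and turn into epithelium. At this stage the dissected region holds mesenchyme that is not yet epithelial next to epithelia such as the nephric duct and the coelomic lining.

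The stretch of genome ahead of Krt23 is shown because Wt1 encodes a DNA-binding protein and the Krt23 signal was lower in its mutants. RefSeq (GRCm38.p6) places the gene on chromosome 11, minus strand, inside the cluster of type I keratin genes. The 250 bases before its annotated start, chr11:99493121-99493370 read 5′ to 3′ on the minus strand, are printed with the matched motif in capitals.
Krt23 upstream: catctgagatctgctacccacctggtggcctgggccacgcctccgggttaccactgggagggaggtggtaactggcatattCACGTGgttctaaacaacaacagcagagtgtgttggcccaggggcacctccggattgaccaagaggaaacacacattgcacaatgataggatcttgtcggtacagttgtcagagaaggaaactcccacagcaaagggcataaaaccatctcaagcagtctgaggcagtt
Of 5 motifs searched on both strands, the E-box CACGTG had 1 match, beginning 169 bases before the start, and 6.04% of 32536 mouse upstream windows of the same length hold that motif. The TATA core TATAAA (12.3% of windows), the GC box GGGCGG (33% of windows), the AP-1 core TGANTCA (6.73% of windows) and the WT1 and EGR core GCGTGGGNG (1.67% of windows) had 0 matches, which says only that these letters are not in this window. No motif overlapped another.

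The Krt23 signal was lower in every mutant pool than in every control pool. On the quantile normalized log2 scale it measured 10.65, 9.22, 9.60 and 9.63 in mutant pools 1 to 4. In control pools 1 to 4 it measured 11.91, 10.98, 11.42 and 11.68. The groups did not overlap, and the highest mutant pool, pool 1, lay 0.33 below the lowest control pool, pool 2. Such a separation with mutants lower was found for 7.62% of the 17594 tested probes, and in either direction for 10.6%, so the lack of overlap by itself is not rare on these arrays. The mean was 9.77 ± 0.61 in mutants and 11.50 ± 0.40 in controls (SD, n = 4 each), a difference of -1.72. In pooled tissue, fewer cells that carry a transcript and less of it per cell cannot be told apart.

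**Figure D1:**
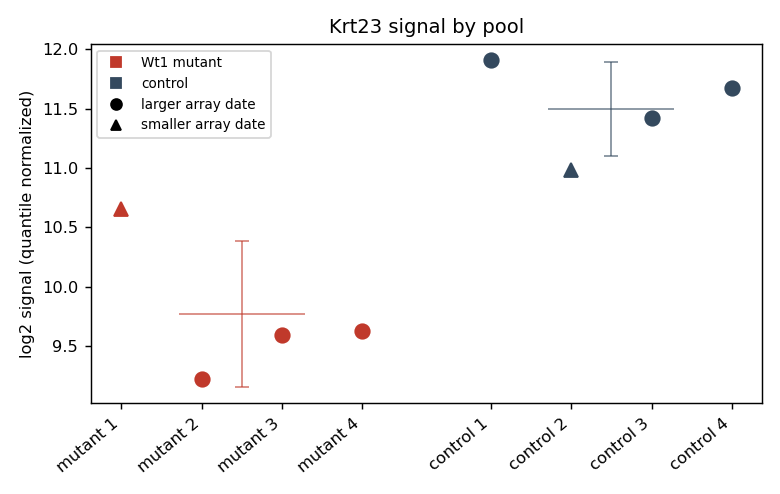
Krt23 log2 signal (quantile normalized, vertical axis) in the 4 mutant and 4 control pools, with horizontal bars at the group means and whiskers of 1 SD. Triangles mark the smaller array date, which holds mutant pool 1 at 10.65 and control pool 2 at 10.98, and circles the larger date, where mutants lie at 9.22 to 9.63 and controls at 11.42 to 11.91.

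The mutant signals were undetected by the probe's own signal-to-noise score, while the control signals were detected. This score is not set by intensity alone. In mutant pool 1, where Krt23 measured 10.65, the probe mCG4613.2 measured 10.66 and had a score of 10.5. The Krt23 signal was 1.43 times the array's median in mutant pool 1, and 0.52 to 0.70 times it in the other mutant pools. The signal-to-noise score of the Krt23 probe was 0.78, 1.14, 0.23 and 0.98 in mutant pools 1 to 4. In control pools 1 to 4 it was 9.89, 3.37, 4.24 and 5.60. With detection set at a score of at least 3 and a flag under 5000, Krt23 was detected in 0 of 4 mutant pools and in 4 of 4 control pools, and control pool 2 passed by a narrow margin. A limit of 5 left 2 of the 4 control pools detected, pools 1 and 4. The scanner's flag was 1 in mutant pools 1, 3 and 4, and 0 in mutant pool 2 and all controls. Across all arrays 99.8% of values with flag 1 had a score under 1, and 0% of values with flag 0 did. Among mutant pools the order by signal was not the order by score: pool 1 had the highest signal and the third highest score, and pool 2 had the lowest signal and the highest score. The differences among mutant pools are thus differences between undetected signals.

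**Figure D2:**
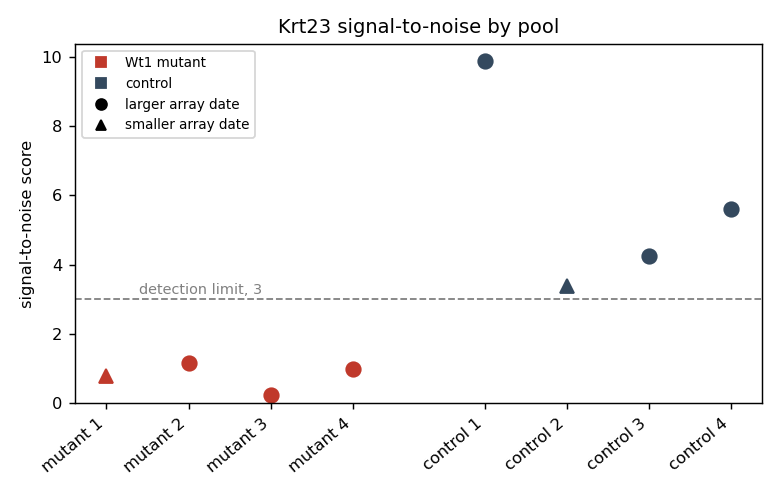
Signal-to-noise score of the Krt23 probe (vertical axis, from 0) in each pool, with the detection limit of 3 as a dashed line. Mutant pools lie between 0.23 and 1.14, and control pools between 3.37 and 9.89.

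Because Krt23 was not detected in any mutant pool, its fold rests on undetected signals. The plain fold between the means was 3.30, lower in mutants. In all 4 mutant pools the probe's own signal was above the lowest detected signal on its array, by at least 1.91 on the log2 scale. That lowest signal therefore sets no bound on the fold. Before any scaling between arrays the intensities were 1165, 576.0, 644.6 and 910.4 in mutant pools 1 to 4, and 7939, 1241, 3639 and 3073 in control pools 1 to 4. On this unscaled intensity the lowest control pool was 1.07 times the highest mutant pool. Control pool 2 was also the dimmest array, with a median signal of 681.6, against 2118 in control pool 1, so intensities were compared only after scaling. The submitters' own array-normalized signal was 1.65, 0.61, 0.74 and 0.78 in mutant pools 1 to 4 and 3.94, 2.01, 2.51 and 2.93 in control pools 1 to 4, also without overlap.

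The size of the Krt23 difference was unequal between the dates carried in the array names. The smaller date holds mutant pool 1 and control pool 2, which were nearer to each other in Krt23 signal than any other mutant and control pool, and their difference was -0.33. With 1 pool of each genotype this date has no replicate check. On the larger date, with 3 pools of each genotype, the means were 9.48 ± 0.23 in mutants and 11.67 ± 0.24 in controls (SD, n = 3 each), a difference of -2.19. Whether date or pool set these values apart cannot be told from 1 pool of each genotype. Each date holds as many mutant as control pools, so a fit with date as a block returns the same -1.72 by construction. The array names of mutant pools 1 and 4 have a number in common. These pools were 1.03 apart in Krt23, and whether they come from the same RNA is not stated. With these pools averaged as 1 sample the difference was -1.84.

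**Figure D3:**
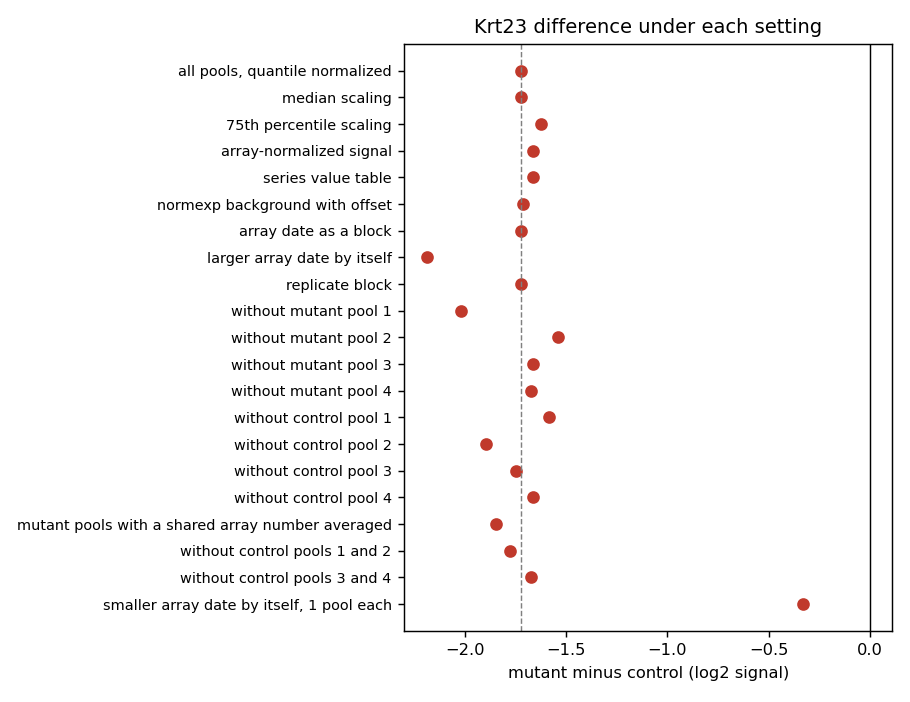
Difference of the Krt23 log2 signal, mutant minus control (horizontal axis), under each setting tried, with the value from all pools as a dashed line. All settings lie below 0, from -2.19 on the larger array date to -0.33 for the 1 pair of pools on the smaller date. Settings that leave out, average or split pools could not turn the sign, because the groups did not overlap. The date and replicate blocks return the dashed value by construction.

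Among the controls, where Krt23 was detected in every pool, its SD of 0.40 was reached or passed by 31.1% of tested probes, whose median SD was 0.29. A principal component analysis of all tested probes placed control pools 1 and 2 away from the rest, at 42.2 and 67.5 on the first axis (42.4% of the variance), where the remaining 6 arrays lay at -21.5 to -13.1. Krt23 did not follow that division. It was highest in control pool 1 and lowest in control pool 2 among the controls, and the mean of controls 1 and 2 was 11.45 against 11.55 in controls 3 and 4. Without control pools 1 and 2 the difference was -1.77, and without control pools 3 and 4 it was -1.67.

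Detection in all controls and in no mutant pool was found for 21 of 33012 probes (0.0636%), Krt23 among them, and the reverse pattern for 6 probes (0.0182%). Krt23 was chosen for its low mutant values, so these shares are given for scale and nothing is read from them. Krt23 was the 1 probe of the 21 with a matched gene symbol, so the other 20 are known here only by identifier. Differences over the 21 ran from -3.62 to -0.37 on the log2 scale, each taken against mutant signals below detection.

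The genes around Krt23 were examined because it lies in a run of keratin and keratin-associated genes. Of the 40 genes nearest in order in the RefSeq table, 20 on each side, 9 were matched to a probe. None of the 3 that could be tested passed limma's test over all probes, in which 0.46% of tested probes passed, and 0 of these 3 had an unadjusted p under 0.05. The hair follicle keratins Krt25 and Krt27 were below detection in all 8 pools. Krt25 had signal-to-noise scores of -1.25 to 0.05 in mutants and -1.84 to 1.95 in controls, and Krt27 of -0.34 to 1.69 in mutants and -0.84 to 0.23 in controls. They and Krt23 are the 3 members of a list of 28 type I keratins that were matched to a probe.

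Of the keratin-associated genes, which encode proteins of the hair fibre, Krtap3-2, Krtap1-5 and Krtap4-7 were also below detection in all 8 pools. Krtap9-3 was detected in 2 mutant pools, 1 and 3, and in 2 control pools, 1 and 3, and was not tested. Its log2 signal was 9.93 ± 0.56 in mutants and 9.47 ± 0.85 in controls (SD, n = 4 each). The probe of Krtap3-3, the nearest matched gene to Krt23 in order, was detected in all pools. It measured 14.09, 14.20, 14.01 and 14.20 in mutants and 14.15, 14.24, 14.14 and 14.37 in controls, which overlap, and its difference was -0.10 (SE 0.11, limma's adjusted p = 0.625). Krtap4-2 measured 10.38 ± 0.61 in mutants and 10.33 ± 0.33 in controls (SD, n = 4 each), which gave 0.05 for mutant minus control (SE 0.30, limma's adjusted p = 0.939), and -0.23 without mutant pool 3. Gjd3, which encodes a gap junction connexin and is the farthest of the 9, measured 13.97 ± 0.16 in mutants and 13.65 ± 0.34 in controls (SD, n = 4 each). Its difference was 0.33 (SE 0.18, limma's adjusted p = 0.405). Without control pools 3 and 4 it was 0.58 (limma's adjusted p = 0.0249), in a fit whose controls were the outlying pools 1 and 2 and in which 26% of tested probes passed. The difference between Krt23 and these neighbours was not tested.

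**Figure D4:**
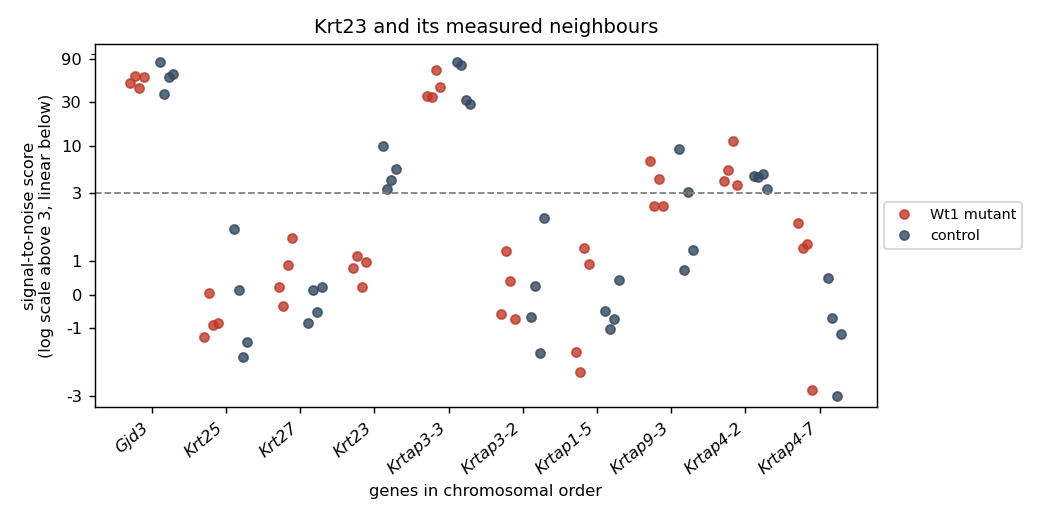
Signal-to-noise score (vertical axis, logarithmic above 3 and linear below) of Krt23 and its 9 matched neighbours in chromosomal order. Each gene has a point for each of the 4 mutant and 4 control pools, and the detection limit of 3 is dashed. In Krt23 all control points lie above the limit and all mutant points below it, while Krt25, Krt27, Krtap3-2, Krtap1-5 and Krtap4-7 lie below it in all 8 pools.

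The cell types that could carry Krt23 could not be followed by their markers. None of the listed genes was matched to a probe for type II keratins (25 genes), other intermediate filaments and linkers (22), epithelial junctions (33), nephric duct and ureteric bud (17), coelomic epithelium (10), metanephric mesenchyme (15), surface ectoderm (10), gut endoderm (13) or endothelium (10). Wt1 was likewise not matched, so neither the genotype labels nor the tissue label was checked by its own markers. Most probes carry an identifier that the files do not pair with a symbol, and 311 probes for 305 genes were matched. Of 11 red cell genes 1 was matched, the alpha globin Hba-a1. Its log2 signals were 19.77 to 20.10 in mutants and 18.08 to 19.64 in controls. They do not overlap, which in either direction holds for 10.6% of tested probes. Hba-a1 was tested over all pools and without control pools 3 and 4. Its difference was 0.98 (SE 0.32, limma's adjusted p = 0.279), and 1.56 without control pools 3 and 4 (limma's adjusted p = 0.00308), where 26% of tested probes passed against control pools 1 and 2. The part of blood content in the Krt23 values was not tested. Sox3, a neural transcription factor and the 1 matched gene of 10 neural markers, was detected in 0 mutant pools and in control pool 1.

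The probes whose pattern over the 8 pools was most like that of Krt23 were found by Pearson's r among the other 17593 tested probes. The r of a probe that differs between genotypes is partly the genotype gap itself, all points share their arrays, and no p is given. An r of at least 0.9 was reached by 78 probes (0.443%), of which 2 had a symbol among 172 with one. Ldhal6b, which encodes a lactate dehydrogenase-like protein, ranked first, with r = 0.98 and Spearman's rho = 0.98. It measured 12.35, 12.09, 12.18 and 12.20 in mutants and 12.63, 12.44, 12.60 and 12.71 in controls. Control pool 2 was the lowest control in both genes, while the highest was control pool 4 in Ldhal6b and control pool 1 in Krt23. The order of Krt23 among mutants is that of signals below detection. The span of Ldhal6b was smaller, with a difference of -0.39 against -1.72 for Krt23, and unlike Krt23 it was detected in all pools, at scores from 10.1 to 33.0.

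After each genotype's mean was subtracted, Ldhal6b had r = 0.91 with Krt23 over the 8 pools. The 4 mutant points of every such value rest on Krt23 signals below detection, so these values describe the numbers on the arrays and not a measured likeness within mutants. On the same subtracted scale 11 of 17593 probes reached 0.9. Rasd1, a glucocorticoid-inducible small GTPase of the Ras family, had r = 0.95, and 0.77 with the genotype means subtracted. It measured 12.16, 11.88, 11.93 and 11.98 in mutants and 12.68, 12.39, 12.78 and 12.59 in controls. The proteasome activator subunit Psme3 (r = 0.77) and the pyridoxal phosphatase Pdxp (r = 0.82) came next, at 0.09 and 0.37 with the genotype means subtracted. For these genes the r with Krt23 was small when the gap between genotypes was taken out. With the means subtracted, the phosphatase Ctdnep1 was second among genes with a symbol, at r = 0.81, with a mutant minus control difference of -0.07.

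Opposite patterns were also present. An r of -0.9 or lower was reached by 25 probes (0.142%), none of which had a symbol. The lowest values among genes with a symbol were those of the clustered protocadherin Pcdha3 (r = -0.86), Mab21l1 (r = -0.86), the chemokine Ccl21a (r = -0.78) and the imprinted gene Magel2 (r = -0.71). Pcdha3 measured 11.99 ± 0.22 in mutants and 11.13 ± 0.33 in controls, and Mab21l1, which encodes a developmental protein of the Mab-21 family, 12.49 ± 0.31 in mutants and 11.65 ± 0.51 in controls (SD, n = 4 each). With the genotype means subtracted these were -0.39 for Pcdha3, -0.63 for Mab21l1, -0.07 for Ccl21a and -0.41 for Magel2. Among unmatched identifiers mCG4613.2 (r = 0.96) and mCG8297.2 (r = 0.96) were the most alike, and mCG3074.1 (r = -0.96) and mCG22795.1 (r = -0.96) the most opposite. The mCG4613.2 probe had a difference close in size to that of Krt23, with 10.28 ± 0.33 in mutants and 12.06 ± 0.18 in controls (SD, n = 4 each), a difference of -1.78.

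**Figure D5:**
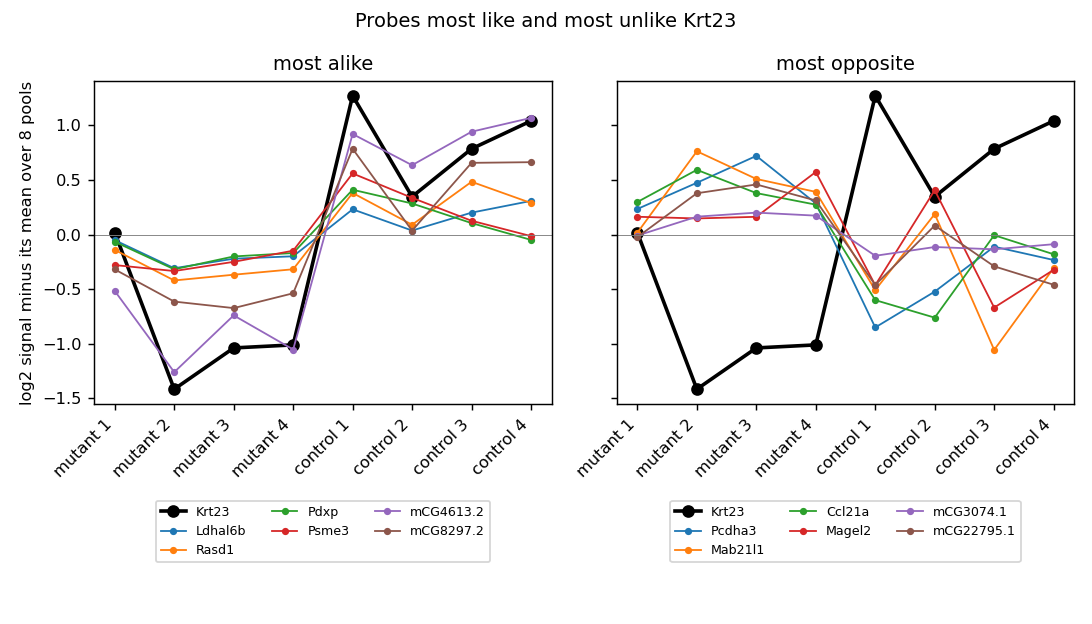
Log2 signal minus the probe's own mean over the 8 pools (vertical axis), for Krt23 in black with the 6 named probes most like it on the left and the 6 most opposite on the right. Lines join the values of a probe and stand for no order of pools. The mutant points of Krt23 are below detection, and Ldhal6b (difference of -0.39) spans less than Krt23 (-1.72).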

How the data were processed

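RNA of 8 pools was hybridised as digoxigenin-labelled, amplified cRNA to 1-colour Applied Biosystems arrays, per the labels' protocols. Per the file headers, the authors deposited for each probe a signal (an intensity on a linear scale), a signal-to-noise score, a flag score and an array-normalized signal. The deposited intensity was never negative (lowest value per array 22.6 to 59.6). It was taken as background corrected, which a positive minimum does not show. Krt25 in mutant pool 1, for example, had a score of -1.25 at a log2 signal of 8.61. How much background remains in the Krt23 signals was not measured. The deposited series table repeats the array-normalized signal in 264096 of 264096 cells. For the scanner software and the genome build, the sources used here give nothing.

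Log2 intensities were quantile normalized over 33012 probes (R 4.3.3, limma 3.58.1). Tested were the 17594 probes with a score of 3 or more and a flag below 5000 in no fewer than 3 of 4 pools of a genotype. The test was a two-sided lmFit and eBayes fit in limma with p-values adjusted by Benjamini-Hochberg and called under 0.05. The fit was also run on simulated data with independent noise in each probe and none shared by an array. That run could not show how the test behaves with the split among the control pools seen here. Differences are mutant minus control. The share of probes detected on an array was 52.6% to 59.5%, and the number of arrays limits the precision. Symbols came from RefSeq (GRCm38.p6), by accession or exact synonym.

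Krt23, the 12 gene lists, the naming rule and the alternatives were chosen with earlier results of these data known. The rule names Krt23, matched keratin and filament genes, up to 2 matched genes of each other list, matched genes among 20 on each side, the 4 highest and 4 lowest r with a symbol, the 2 highest and 2 lowest without, and the 2 highest after subtracting genotype means. It also names genes with a symbol that share the detection pattern of Krt23. Alternatives changed scaling, background, filter, variance model, weights, blocks and pools.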

Additional observations from a re-analysis of the deposited data

Results flagged for a closer look

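Of 50 groups of 4 pools that were checked for a value far from the rest, 1 held such a value, and chance gives about 5% of groups. Magel2, the fourth most opposite to Krt23 among genes with a symbol, had a log2 signal of 12.37 in mutant pool 4, where mutant pools 1 to 3 had 11.94 to 11.96. No Krt23 value was set apart in this way.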

How the results depend on the processing

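The Krt23 signals of the genotypes did not overlap, so leaving out or averaging pools could not turn the sign of the difference of -1.72, and only its size is informative there. Leaving out 1 pool gave -2.02 (without mutant pool 1) to -1.54 (without mutant pool 2), other scalings, values and background correction gave -1.72 to -1.62, and the pair on the smaller date, added after the data had been seen, gave -0.33. With the replicate number as a block, which is balanced, it was -1.72 by construction. Same-numbered pools correlated at -0.09 to 0.18 in their deviations from the group means, so the numbers were not taken as pairs. With a limit of 5, Krt23 was detected in 2 control pools, and with limits of 2, 3 and 5 it was detected in 0 mutant pools. The pattern of detection in all controls and no mutant held for 32 probes at a limit of 2. At a limit of 5 it held for 29 probes, and Krt23 was not among them.

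The 81 probes called over all arrays (12 higher, 69 lower) were 30 without a filter on dim probes, 285 with array weights (103 higher, 182 lower), 30 on the larger date, 30 with the replicate block, 36 with mutant pools 1 and 4 averaged, 4566 without control pools 3 and 4 (2115 higher, 2451 lower), 89 without control pools 1 and 2 (36 higher, 53 lower), and 38 to 65 with 1 pool left out. The cause was not tested. The Krtap4-2 difference of 0.05 was -0.23 without mutant pool 3, -0.048 without control pool 1 and -0.032 without control pools 3 and 4, and ran from -0.23 to 0.24 over the pools left out. The signal-to-noise score limits the mutant side: Krt23 signals there were undetected, so their size and spread are not measured levels.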
